A study of Homo sapiens with 6 samples.

Results

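The genes described here are 29 transcriptional targets of the tumour suppressor p53, picked by symbol from a TPM table of 61895 rows, and all 29 symbols were found by Ensembl gene ID. They were measured in 6 RNA-seq libraries from cells labelled PC3, a human prostate cancer cell line whose growth does not need androgen. In 3 libraries the cells carried a lentiviral short hairpin RNA against CTSZ, the gene of the lysosomal protease cathepsin Z (shCTSZ), and the other 3 libraries were from cells with a control vector (shControl). Both groups had been through lentiviral delivery and antibiotic selection for stable populations, and no DNA-damaging treatment is named in the labels. Not stated in the labels are whether a group's libraries are separate cultures, whether 1 hairpin or several were used, or whether the populations were clonal. The p-values therefore measure only the spread between these samples, which may be technical.

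The transcription factor p53 is held low by the ubiquitin ligase MDM2 and accumulates after DNA damage and other stress. It then switches on genes that stop the cell cycle, repair DNA, limit oxidative damage or start cell death, and several of these products, MDM2 among them, feed back on p53 itself. PC3 is described as making no p53 protein. Many of the targets are also driven by other factors, among them the p53 relatives p63 and p73, so their transcripts can be present without p53.

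TPM is a share of each library per unit of transcript length, and read totals do not come with it, so depth is unknown and counting intervals are left out. Rows above 0 numbered 24299 to 24714 in the shControl libraries and 23679 to 24045 in the shCTSZ libraries. The share of TPM from mitochondrially encoded genes was 5.10% to 5.38% in shControl and 6.24% to 6.38% in shCTSZ. CTSZ held 90.6, 94.7 and 93.2 TPM in shControl and 21.7, 18.3 and 19.7 TPM in shCTSZ. Of the markers of the line, KRT8 averaged 1256 and 2304 TPM in shControl and shCTSZ and KRT18 averaged 3149 and 3859 TPM, while EPCAM reached at most 0.22 TPM and CDH1 held 0.21 to 2.59 TPM. KLK3, a secreted protease of luminal prostate cells, was listed at 0 throughout. All 5 leukocyte markers stayed under 1 TPM in every library, and their sum was 0.33 to 0.79 TPM in shControl and 0.24 to 0.36 TPM in shCTSZ. Fibroblast markers summed to 1.3 to 1.69 TPM in shControl and 0.33 to 0.71 TPM in shCTSZ, and endothelial markers to 1.24 to 1.75 and 1.61 to 2.32 TPM.

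CTNNA1, which encodes alpha-catenin and which PC3 is described as having lost by deletion, was looked up after other values had been seen. It held 282, 277 and 263 TPM in shControl and 268, 282 and 275 TPM in shCTSZ. This level and that of EPCAM go against the usual description of PC3, and a table of levels per gene does not show which exons were read. The genes are therefore called p53 target genes, and whether the cells lacked p53 was not tested.

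The sequence just before the start of the target genes was searched for the decamer of the p53 response element, the unit of DNA sequence that p53 and its relatives bind. RefSeq start windows on GRCh38.p14 were found for 25 of the 29 genes, and the 250 bases before each start were used; GADD45A, PHLDA3, RRM2B and TP53INP1 had no entry. A decamer was present in 6 of the 25 genes, against 5.57% of all 35116 windows, though a gene with several starts had more windows to match. Of the 4 genes that rose in shCTSZ, all with a window, 3 held one (PLK2, AEN and EI24), as did 0 of the 6 with a window among those that fell and 3 of the 14 tested without a call (SESN1, RPS27L and FDXR). These 6 stretches are shown with GRCh38.p14 coordinates, 5′ to 3′ on the strand of the gene, at most 30 bases each, with the decamer in capitals.
PLK2, chr5:58460199-58460228, minus strand: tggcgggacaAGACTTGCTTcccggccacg
AEN, chr15:88621296-88621325, plus strand: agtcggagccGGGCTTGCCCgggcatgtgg
EI24, chr11:125569457-125569476, plus strand: cgtgcggcccGGGCATGCCC
SESN1, chr6:109009018-109009047, minus strand: attgtcgtctGGACAAGTCTccacaagtca
RPS27L, chr15:63157517-63157546, minus strand: ggcctagagcAGACAAGCCCgccccgccgc
FDXR, chr17:74872995-74873015, minus strand: gggcaggagcGGGCTTGCCCt

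The decamer reads the same on both strands as a pattern, and AEN and FDXR held the identical decamer; the match of SESN1 was at 1 of its 3 starts. A pair of decamers at most 13 bases apart, the form of a complete response element, was in 0 of the 25 genes and in 0.0256% of all windows. Known response elements of several targets, those of CDKN1A and MDM2 among them, lie farther upstream or within the gene and so outside this search. The GC box GGGCGG, searched on both strands, was in 22 of the 25 genes and in 42.6% of all windows; TATAAA was in 1 gene and 10.7% of windows, and TGACGTCA in 2 genes and 1.65% of windows. A match is a description of the letters and not a site of binding.

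Levels of the p53 target genes spanned a wide range. GADD45A stood highest at a mean of 1118 TPM over the 6 libraries, above 99.1% of the 14874 rows kept for testing at a mean of at least 1 TPM. EPHA2 (377 TPM), CDKN1A (359 TPM) and SFN (281 TPM) followed, and PLK2, AEN and EI24 lay between 112 and 134 TPM. Neighbours in this order often did not differ beyond their spread: MDM2 and CCNG1 averaged 59.95 and 59.92 TPM and their libraries overlapped, as did those of RPS27L and TP53I3. At the low end ZMAT3 averaged 1.62 TPM, SESN1 1.02 TPM, and TP53INP1 and SPATA18 fell below the filter at 0.767 and 0.085 TPM, so 27 of the 29 were tested. SESN1 lay just inside that filter. Summed over the 29 genes, the libraries held 3312, 3280 and 3177 TPM in shControl and 2696, 2822 and 2817 TPM in shCTSZ, and the groups did not overlap. Without GADD45A the sums were 1997, 1973 and 1949 TPM against 1787, 1822 and 1866 TPM. Abundant genes weigh most in such sums, which therefore do not describe the targets in general. EPHA2, CDKN1A and SFN averaged 391, 394 and 338 TPM in shControl and 364, 324 and 224 TPM in shCTSZ. Of the 27 tested genes, 14 had a log2 fold change above 0 and 13 below 0.

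**Figure D1:**
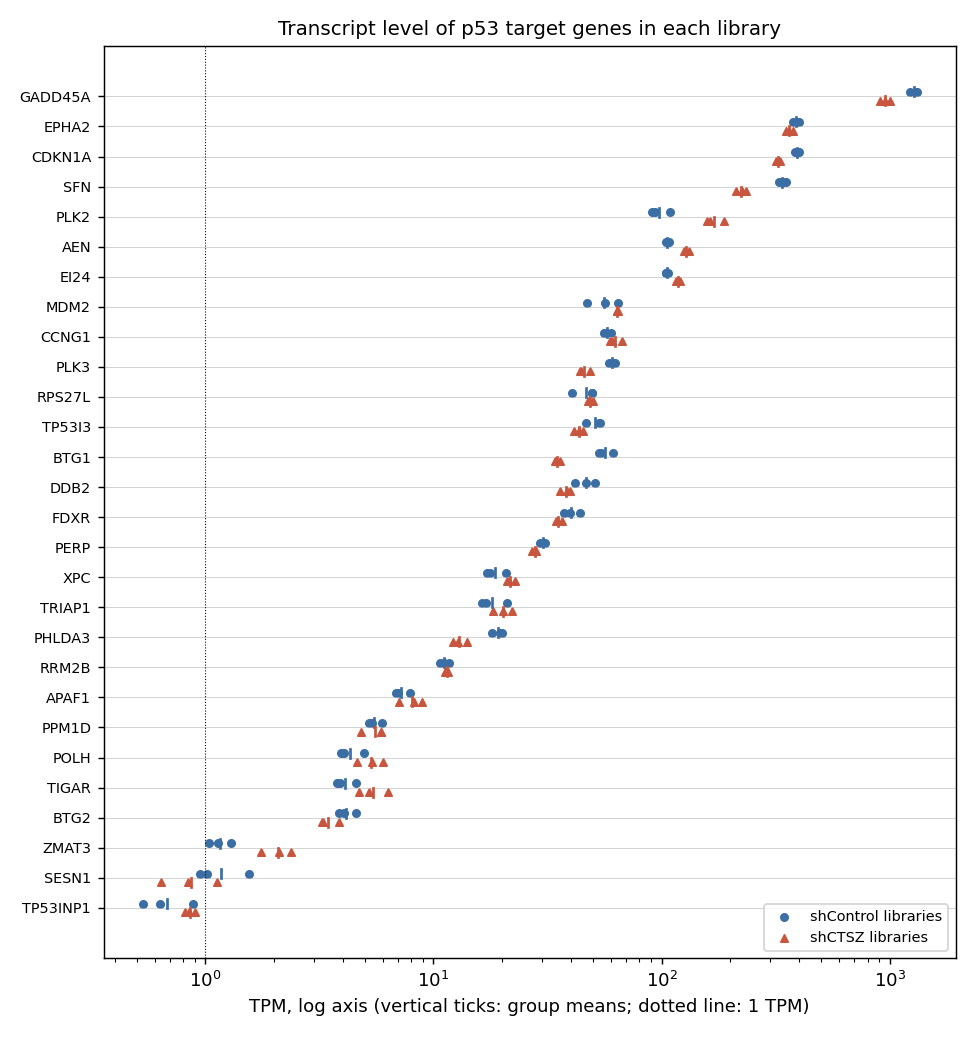
TPM of 28 p53 target genes in each library on a log axis, with circles for the 3 shControl libraries, triangles for the 3 shCTSZ libraries and short vertical lines for group means; SPATA18, listed at 0 in 1 library, is left out. GADD45A lies highest and TP53INP1 lowest, below the dotted line at 1 TPM, and the groups stand apart for BTG1, SFN, GADD45A and PLK2.

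Of the 27 tested genes, 8 fell and 4 rose in shCTSZ, and 15 did not pass. A gene is said to have fallen or risen where limma's Benjamini-Hochberg adjusted p over all rows was under 0.05; by that rule 34.5% of all rows were called, 19.8% higher and 14.7% lower. Among the p53 targets 44.4% were called, 14.8% higher and 29.6% lower. The libraries of the groups did not overlap for 17 of the 27 genes (63.0%), against 50.3% of all rows. All of these genes are protein-coding. Among protein-coding rows 54.7% did not overlap, and 37.9% were called, 23.3% higher and 14.6% lower. The median log2 fold change of the 27 was 0.004, beside 0.044 over all rows, and the median size of the change was 0.22 in both sets to 2 decimals. All log2 fold changes were taken after adding 1 to TPM (the log2(TPM + 1) scale), and for low genes this makes a change look smaller than it is. With median-of-ratios scaling 2 targets were higher and 11 lower, while the balance of all rows moved the same way, from 2950 higher and 2185 lower to 2463 higher and 2661 lower. After removal of a trend with GC content and transcript length from each library 2 were higher and 8 lower. Of the 14324 rows in that fit 2563 were higher and 2019 lower. The 8 lower targets were not the same genes as before, since TP53I3 dropped out and PERP entered. None of the 27 passed a limma test against a 1.5-fold change, which 171 of all rows passed (1.15%). At that share a count of 0 among 27 does not set the targets apart. In bulk RNA, fewer cells expressing a gene and less RNA per cell cannot be told apart.

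**Figure D2:**
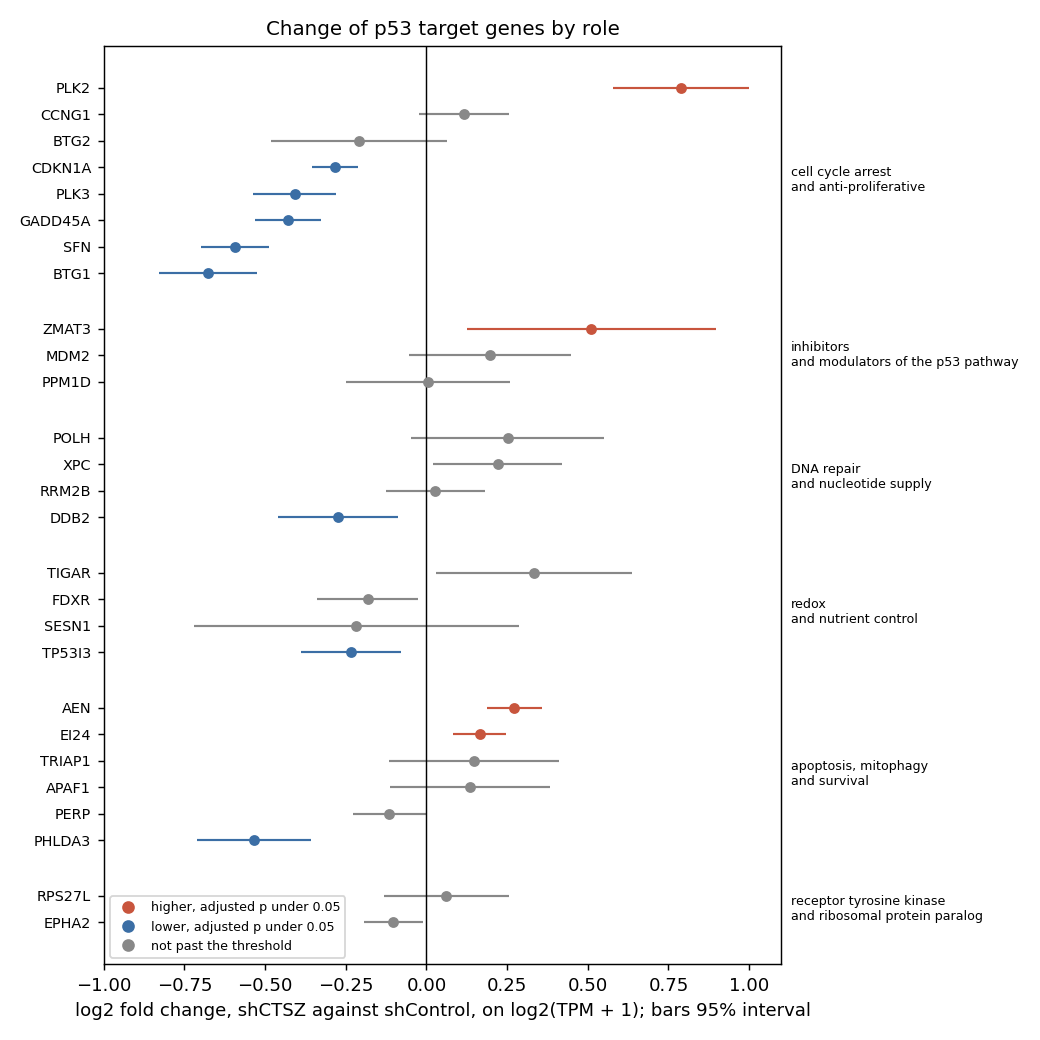
Log2 fold change of each of the 27 tested p53 target genes on the log2(TPM + 1) scale, shCTSZ against shControl, grouped by role, with bars for the 95% interval from limma. In the cell cycle group 5 of 8 genes lie below 0 with an adjusted p under 0.05, while PLK2 lies farthest above 0 at 0.79.

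Among the 8 genes of cell cycle arrest 5 fell, 1 rose and 2 did not pass, with a median log2 fold change of -0.35; of all rows 14.7% fell and 19.8% rose. The role groups are small and were not tested against each other. CDKN1A (ENSG00000124762, GRCh38 chromosome 6, 36676460 to 36687339, plus strand) encodes p21, the inhibitor of cyclin-dependent kinases through which p53 stops the cycle in G1. It held 402, 396 and 385 TPM in shControl and 317, 325 and 329 TPM in shCTSZ. All shCTSZ libraries were below all shControl libraries, at 82.1% of the control mean, a log2 fold change of -0.28 (SE 0.030, adjusted p = 0.000949 by limma). Once the GC and length trend was removed it was -0.16 (adjusted p = 0.0134, out of 0.000337 to 1 over its alternatives). GADD45A (chromosome 1, 67685061 to 67688338), a stress sensor that binds PCNA and MAP kinase kinase kinases, held 1315, 1307 and 1228 TPM in shControl. In shCTSZ it held 908, 999.6 and 951 TPM, again without overlap, and the log2 fold change was -0.43 (SE 0.043, adjusted p = 0.000774 by limma).

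SFN (chromosome 1, 26863138 to 26864457), which encodes 14-3-3 sigma, a protein that keeps mitotic kinases in the cytoplasm, showed a deeper fall. It went from 340, 326 and 350 TPM in shControl to 225, 213 and 234 TPM in shCTSZ, a log2 fold change of -0.59 (SE 0.045, limma adjusted p = 0.000306). The largest fall among the targets was that of BTG1 (chromosome 12, 92140278 to 92145897, minus strand), an anti-proliferative partner of the mRNA deadenylase complex. BTG1 held 53.1, 54.3 and 61.5 TPM in shControl and 33.95, 35.9 and 34.6 TPM in shCTSZ, 61.8% of the control mean (log2 fold change -0.68, SE 0.065, limma adjusted p = 0.000655). Its relative BTG2 was a much scarcer transcript at 4.56, 3.85 and 4.04 TPM in shControl and 3.23, 3.28 and 3.86 TPM in shCTSZ. The BTG2 groups overlapped, and its log2 fold change of -0.21 had a 95% interval of -0.48 to 0.06.

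The polo-like kinases PLK2 and PLK3, both stress-responsive, went opposite ways. PLK2 (chromosome 5, 58453982 to 58460260, minus strand), which acts in centriole duplication, held 93.6, 109 and 90.5 TPM in shControl and 158, 163 and 187 TPM in shCTSZ. Its log2 fold change of 0.79 was the largest rise among the targets (95% interval 0.58 to 1.00, limma adjusted p = 0.00115). PLK3 (chromosome 1, 44800225 to 44805990), a kinase of the damage and stress response, held 61.4, 62.2 and 58.9 TPM in shControl and 44.3, 43.9 and 48.7 TPM in shCTSZ, so the groups of each gene stood apart but in reverse order. The log2 fold change of PLK3 was -0.41 (SE 0.055, adjusted p = 0.00208). CCNG1, which encodes cyclin G1, a partner of the phosphatase PP2A, averaged 57.4 ± 2.0 TPM in shControl and 62.4 ± 4.3 TPM in shCTSZ (SD, n = 3 each), and its groups overlapped.

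Of the 3 genes that restrain p53, MDM2 and PPM1D did not pass and ZMAT3 rose. MDM2 (chromosome 12, 68808176 to 68850686) held 64.6, 56.6 and 46.9 TPM in shControl and 64.4, 63.6 and 63.6 TPM in shCTSZ. The control libraries spread widely and the highest of them lay above every shCTSZ library (log2 fold change 0.20, 95% interval -0.05 to 0.45, limma adjusted p = 0.191). MDM2 passed only without shControl replicate 1 (log2 fold change 0.30, adjusted p = 0.0459, out of a range from 0.0459 to 1 over its alternatives). Its log2 fold change was 0.08 without shControl replicate 3 and 0.07 once the GC and length trend was removed. PPM1D, a phosphatase that reverses damage signalling, averaged 5.51 ± 0.38 and 5.54 ± 0.63 TPM (n = 3 each). MDM2 shares its strand and locus with an unnamed row that averaged 36.6 TPM and fell, so the division of its reads is uncertain. ZMAT3 (chromosome 3, 179017223 to 179072279, minus strand), an RNA-binding zinc finger protein, held 1.14, 1.30 and 1.04 TPM in shControl and 1.76, 2.11 and 2.38 TPM in shCTSZ. Its groups did not overlap, though all values were low, with a log2 fold change of 0.51 (SE 0.16, adjusted p = 0.0487 by limma). At this low level the value depended on what was added to TPM: 0.79 with 0.1 and 0.20 with 5. The call of ZMAT3 was lost under 10 of 16 alternatives, among them leaving out any shControl library or shCTSZ replicate 2 or 3 (adjusted p 0.056 to 0.0882; over all its alternatives 0.0132 to 1).

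Among 4 genes of DNA repair and nucleotide supply 1 fell and none rose. DDB2 (chromosome 11, 47214465 to 47239240), which recognises ultraviolet damage for nucleotide excision repair, held 46.5, 50.9 and 41.9 TPM in shControl and 36.0, 38.6 and 39.7 TPM in shCTSZ. The groups did not overlap, with a log2 fold change of -0.27 (SE 0.078, limma adjusted p = 0.0332). This call was lost on leaving out any library but shControl replicate 3 (adjusted p 0.0683 to 0.107; over its alternatives 0.0121 to 1). It was also lost without the filter (limma adjusted p = 0.0826), without the mean-variance trend in the moderation (0.0606) and with the replicate block (0.0591). XPC, another damage sensor of the same repair pathway, had 20.9, 17.1 and 17.6 TPM in shControl and 22.8, 20.9 and 21.4 TPM in shCTSZ, and its groups did not overlap. Its log2 fold change of 0.22 missed the threshold (limma adjusted p = 0.0857) and passed without shControl replicate 1 (0.30, adjusted p = 0.0241, out of 0.0241 to 1 over its alternatives). XPC overlaps LSM3 on the other strand, which averaged 8.55 TPM and rose. POLH, a DNA polymerase that copies past ultraviolet lesions, averaged 4.30 ± 0.56 and 5.32 ± 0.69 TPM, and RRM2B, a ribonucleotide reductase subunit, 11.2 ± 0.50 and 11.4 ± 0.19 TPM (n = 3 each). POLH overlaps GTPBP2 on the other strand, which averaged 76.1 TPM and fell, so the reads of POLH may be shared.

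Of 4 genes of redox and nutrient control, TP53I3 fell and 3 did not pass. TP53I3 (chromosome 2, 24077433 to 24085861, minus strand), a quinone oxidoreductase also called PIG3, held 53.8, 46.9 and 52.99 TPM in shControl and 41.5, 45.0 and 43.5 TPM in shCTSZ. The lowest shControl library lay just above the highest shCTSZ library, a log2 fold change of -0.23 (SE 0.066, adjusted p = 0.031 by limma). The call of TP53I3 was lost on leaving out any library but shControl replicate 2 (adjusted p 0.0559 to 0.0966; over its alternatives 0.0153 to 1). FDXR, the mitochondrial ferredoxin reductase, averaged 40.2 ± 3.2 and 35.3 ± 1.1 TPM without overlap (n = 3 each; log2 fold change -0.18, limma adjusted p = 0.0719); it passed with median-of-ratios scaling (adjusted p = 0.0449) and quantile normalisation (0.0455), out of 0.0449 to 1, but once the GC and length trend was removed its log2 fold change was -0.0138 (0.888). TIGAR, a fructose bisphosphatase that lowers glycolytic flux, averaged 4.09 ± 0.44 and 5.43 ± 0.83 TPM. It shares its strand and locus with an unnamed row that averaged 14.3 TPM and fell by 1.18 on the log2 scale, so reads may be shared between them. SESN1, a leucine sensor of the sestrin family, averaged 1.17 ± 0.33 and 0.867 ± 0.24 TPM with overlapping groups.

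The genes of apoptosis, mitophagy and survival divided. Of the 6 tested, AEN and EI24 rose, PHLDA3 fell, and APAF1, PERP and TRIAP1 did not pass. AEN (chromosome 15, 88621296 to 88632282), an apoptosis-enhancing nuclease, held 108, 104 and 106 TPM in shControl and 126, 132 and 127 TPM in shCTSZ, with no overlap (log2 fold change 0.27, SE 0.036, limma adjusted p = 0.00206). With the GC and length trend removed the AEN change was 0.43. EI24 (chromosome 11, 125569216 to 125584687), an endoplasmic reticulum protein of autophagy, held 107, 105 and 104 TPM in shControl and 121, 118 and 116 TPM in shCTSZ. The EI24 libraries lay close together within each group, and the change was small (log2 fold change 0.17, SE 0.035, limma adjusted p = 0.0111). The EI24 call was lost with median-of-ratios scaling (0.12, adjusted p = 0.0545), with the GC and length trend removed (0.10, 0.066) and in the test against 1.5-fold, over a range of 0.00808 to 1. EI24 overlaps FEZ1 on the other strand, which averaged 138 TPM and fell by 0.97 on the log2 scale.

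PHLDA3 (chromosome 1, 201464383 to 201469237, minus strand), a pleckstrin homology protein that competes with AKT for membrane lipids, held 19.6, 20.1 and 18.0 TPM in shControl. In shCTSZ it held 12.8, 13.97 and 12.2 TPM, 67.5% of the control mean and without overlap (log2 fold change -0.53, SE 0.075, limma adjusted p = 0.00251). APAF1, the scaffold of the apoptosome, averaged 7.22 ± 0.56 and 8.05 ± 0.95 TPM, and TRIAP1, a mitochondrial lipid transfer partner that favours survival, 18.1 ± 2.6 and 20.1 ± 1.9 TPM (n = 3 each). PERP, a desmosome and apoptosis membrane protein, averaged 30.1 ± 0.74 and 27.7 ± 0.63 TPM without overlap. Its log2 fold change of -0.11 missed the threshold (limma adjusted p = 0.109), and it passed with median-of-ratios scaling (-0.16, adjusted p = 0.0332), quantile normalisation (-0.16, 0.0357) and the GC and length trend removed (-0.33, 0.0045), out of 0.0045 to 1. TP53INP1, which promotes p53 phosphorylation and autophagy, lay between 0.53 and 0.90 TPM over all libraries, and SPATA18, a mitochondrial quality control gene, between 0 and 0.23 TPM.

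The remaining targets did not pass. EPHA2, an ephrin receptor tyrosine kinase, held 393, 400 and 379 TPM in shControl and 351, 363 and 378 TPM in shCTSZ, with the groups separated by less than 1 TPM (log2 fold change -0.10, limma adjusted p = 0.078). EPHA2 passed with median-of-ratios scaling (adjusted p = 0.0117, out of 0.0117 to 1) and lay above 0 with the GC and length trend removed. RPS27L, a paralog of the ribosomal protein gene RPS27, held 49.5, 40.7 and 49.6 TPM in shControl and 47.95, 50.03 and 47.5 TPM in shCTSZ, with overlapping groups. RPS27 itself held 6168 ± 304 and 5820 ± 66 TPM (n = 3 each), more than RPS27L by far in every library, and similar copies can exchange reads in the authors' estimate.

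**Figure D3:**
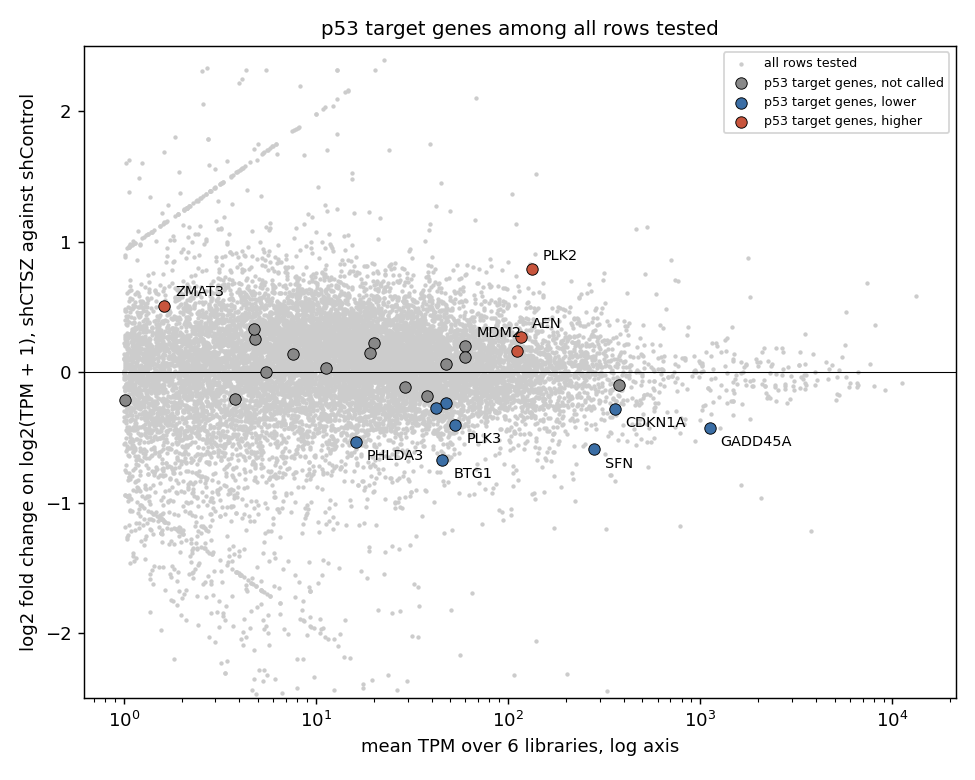
Log2 fold change on the log2(TPM + 1) scale against mean TPM on a log axis for all 14874 rows tested (grey), with the p53 target genes as large points coloured by call; 36 rows lie outside the vertical axis. The targets lie within the cloud of other rows, with PLK2 at 0.79 and BTG1 at -0.68 as their extremes.

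The genes of p63 and p73 did not pass the test. TP63 held 29.4, 28.1 and 24.6 TPM in shControl and 26.9, 26.2 and 28.8 TPM in shCTSZ (95% interval of the log2 fold change -0.19 to 0.18), and TP73 lay between 5.5 and 6.2 TPM. MDM4, the MDM2 relative that masks p53, varied from 2.89 to 7.22 TPM within shCTSZ alone and was not called.

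Over a list of 24 members of the p53 family and its regulators, 6 rose, 1 fell and 17 did not pass, with a median log2 fold change of 0.097. The share called in it, 29.2%, lay below the 34.5% of all rows. CDKN2A, whose products inhibit CDK4 and MDM2, rose from 102 ± 4.4 to 126 ± 2.3 TPM (n = 3 each; limma adjusted p = 0.00238); its log2 fold change of 0.31 was 0.46 with the GC and length trend removed. RCHY1, a ubiquitin ligase for p53, rose from 22.3 ± 1.9 to 28.8 ± 0.85 TPM, and TP53BP2, a p53-binding apoptosis stimulator, rose from 16.9 ± 0.88 to 20.8 ± 0.05 TPM. CREBBP, an acetyltransferase that acts on p53 and was named after its values were seen, was the farthest above 0 at 1.27 (limma adjusted p = 0.0374), with 23.7, 22.3 and 21.6 TPM in shControl and 64.9, 28.6 and 93.3 TPM in shCTSZ.

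Among 40 further reported p53 targets, 37 were tested, of which 13 fell, 6 rose and 18 did not pass (35.1% lower and 16.2% higher, beside 14.7% and 19.8% of all rows; median log2 fold change -0.086, beside 0.044). GDF15, a stress cytokine, and S100A2, a calcium-binding protein of basal epithelium, fell with log2 fold changes of -1.22 and -1.19. S100A2 held 257, 213 and 251 TPM in shControl and 108, 103 and 102 TPM in shCTSZ. BBC3, the BH3-only death gene PUMA, fell from 60.3 ± 1.6 to 40.8 ± 1.9 TPM (n = 3 each; log2 fold change -0.55, limma adjusted p = 0.000563), while THBS1, thrombospondin 1, rose by 1.51 on the log2 scale. Without shControl replicate 2 the calls in this list numbered 12 instead of 19, while those over all rows went from 34.5% to 25.8%.

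**Figure D4:**
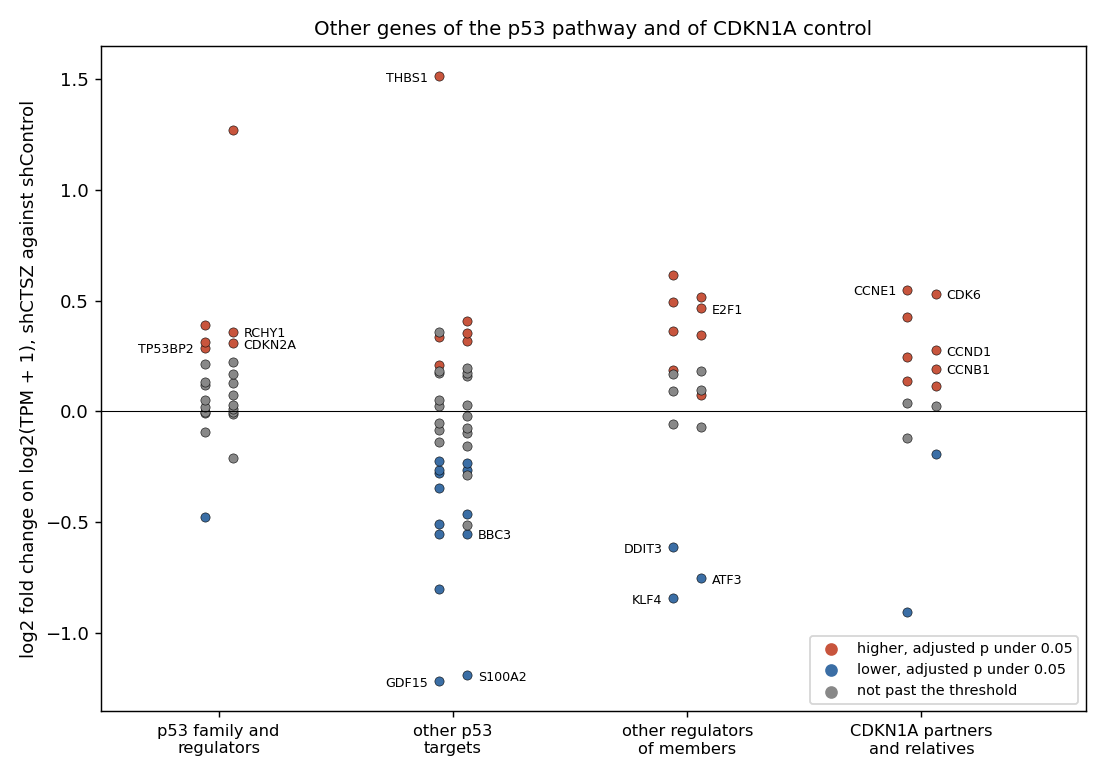
Log2 fold change on the log2(TPM + 1) scale of the tested genes of 4 lists, 1 point a gene, offset sideways only for legibility and coloured by call. In the list of the p53 family and its regulators 6 genes rose and 1 fell, and most called genes of the CDKN1A partner list lie above 0.

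Genes around p21 were also counted. Of 13 partners and relatives of CDKN1A (cyclin-dependent kinases, cyclins, PCNA and the other inhibitors of its family) 8 rose, 2 fell and 3 did not pass, with a median log2 fold change of 0.14. In this list 61.5% rose, beside 19.8% of all rows and 23.3% of protein-coding rows. CDK6 rose from 11.5 ± 1.2 to 17.0 ± 0.27 TPM, CCNE1 from 9.78 ± 1.4 to 14.7 ± 0.54 TPM and CCND1 from 206 ± 6.2 to 250 ± 12 TPM (n = 3 each). With the GC and length trend removed the log2 fold change of CCND1 went from 0.28 to 0.49. CCNB1 rose from 188.5 ± 3.7 to 216 ± 8.3 TPM, and its log2 fold change of 0.19 was 0.08 with that trend removed, where the call was lost. CDKN1C, which encodes the p21 relative p57, was named after its value was seen and fell from 4.29 ± 0.98 to 1.88 ± 0.85 TPM (limma adjusted p = 0.0308). Calls in this list numbered 5 with the GC and length trend removed or without shCTSZ replicate 2, where 32.0% and 25.0% of all rows were called. They numbered 6 without a filter on low values, where 12.2% of all rows were called. The count was also 6 without shControl replicate 1 or shCTSZ replicate 1 (29.3% and 26.3% of all rows). In the main fit 34.5% of all rows were called.

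A last list held 18 transcription factors known to act on some of the targets without p53. Of 17 tested, 8 rose, 3 fell and 6 did not pass (47.1% higher and 17.6% lower, beside 19.8% and 14.7% of all rows). The falls were those of KLF4, an activator of CDKN1A (32.3 ± 1.4 to 17.6 ± 0.73 TPM), and of the stress factors ATF3 (139 ± 13 to 81.9 ± 5.3 TPM) and DDIT3 (208 ± 3.5 to 136 ± 4.4 TPM; n = 3 each). DDIT3 overlaps other rows, 1 of them on its own strand at a mean of 783 TPM that also fell, so its reads may be shared. E2F1, the S phase factor, rose from 37.0 ± 1.2 to 51.5 ± 1.0 TPM (limma adjusted p = 0.000722). Without shControl replicate 2 or 3 or shCTSZ replicate 3 the list had 7 calls instead of 11. The share called over all rows was then 25.8%, 25.9% and 25.1%, instead of 34.5%. Whether these factors had a part in the changes of the targets was not tested.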

How the data were processed

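The authors deposited 1 table of TPM values per gene for 6 libraries. Tools named in the submitters' processing notes are fastp and RSEM, with the build GRCh38.p13. Aligner, annotation release and strand setting: not given in the sources used here. Depth is unknown. Columns were matched to samples by name. Symbols came from a gene name table (61528 of 61895 rows matched), positions from GENCODE 29 on GRCh38, and promoter sequences from RefSeq on GRCh38.p14.

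Rows with a mean of at least 1 TPM (14874) were tested in R 4.3.3 by limma 3.58.1. The scale was log2(TPM + 1), the group was the only term, moderation followed the mean-variance trend, and p-values were adjusted by Benjamini-Hochberg with a threshold of 0.05. The fit was tested on simulated data. The target genes and the other lists were chosen with earlier results of these data known. Library values are given for every target past the threshold and for MDM2; of each other list, up to 4 genes with the smallest adjusted p, with TP63, TP73, MDM4 and RPS27, are named. Some genes are not reported here. Alternatives changed the pseudocount, filter, scaling, moderation, replicate block, GC and length trend, libraries and null fold. Plots used Python 3.11.15 and matplotlib 3.10.9.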

Additional observations from a re-analysis of the deposited data

How the results depend on the processing

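The 8 falls and 4 rises among the p53 targets were 6 to 7 and 3 to 5 on leaving out any 1 library. Of all rows 25.0% to 29.3% were called with a library left out, beside 34.5% with all 6, so lower counts are not particular to the lists. In the test against a 1.5-fold change 0 targets were higher and 0 lower, beside 171 rows in all (1.15% of those tested). The other lists then had 3 calls among further p53 targets and 0 among p53 regulators, other regulators, CDKN1A partners and paralogs. Rises among the targets numbered 2 with median-of-ratios scaling and 2 once the GC and length trend was removed. Over all rows the rises were then 2463 and 2563, instead of 2950. CDKN1A partners had 6 calls without the filter, 5 with the trend removed and 5 to 7 with a library left out. Paralogs had 8 calls with quantile normalisation and 8 with the trend removed. The share called over all rows was 12.2% without the filter, 32.0% with the trend removed and 34.8% with quantile normalisation. Leaving out a library gave 12 to 15 calls among further targets and 7 to 9 among other regulators. Genes near no change, none of them called, turned sign: PPM1D (-0.0381 with median-of-ratios, -0.0091 with quantiles, -0.1139 with the trend removed, -0.0377 to 0.0874 with a library left out), RRM2B (-0.0181, -0.0548, -0.0655, and -0.0007 to 0.0585), RPS27L (-0.0707 with the trend removed, -0.0315 to 0.1087 with a library left out), MDM4 (-0.1095 and -0.1267 to 0.413), APAF1 (-0.0592 with the trend removed), EPHA2 (0.0561 likewise) and TP63 (0.0132 when rescaled without mitochondrial genes, -0.0737 to 0.0499 with a library left out). The cause was not tested. Replicate numbers did not pair the libraries (same-numbered deviations correlated at -0.09, -0.02 and -0.04), and with the replicate block 6 targets were lower and 3 higher, with 4026 of all rows called. Depth could not be judged from TPM.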

Other observations

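Paralogs of the target genes were measured beside them. Of 20 listed, 18 were tested, of which 3 rose, 2 fell and 13 did not pass (27.8% called, below the 34.5% of all rows; median log2 fold change -0.028). RRM1 and RRM2, subunits of the ribonucleotide reductase that supplies dividing cells, rose from 77.0 ± 2.5 to 101 ± 2.1 TPM and from 199 ± 11 to 264 ± 11 TPM (n = 3 each; limma adjusted p = 0.000905 and 0.00178), while RRM2B, the p53-responsive subunit, held 11.2 ± 0.50 and 11.4 ± 0.19 TPM. PHLDA2, a relative of PHLDA3 encoded at an imprinted locus, fell from 229 ± 3.0 to 167 ± 4.2 TPM, a log2 fold change of -0.45 (-0.29 with the GC and length trend removed) beside -0.53 for PHLDA3. BTG3 fell from 110.2 ± 2.6 to 90.7 ± 2.3 TPM, with a log2 fold change of -0.28 beside -0.68 for BTG1. GADD45B, a relative of GADD45A, averaged 222 and 220.1 TPM in the groups and was not called, and GADD45G was listed at 0 in every library; both were named after their values were seen.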
